A study of Mus musculus with 6 samples.

Results

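The genes described here are 32 p53 target genes, among them Trp53 itself, measured in AtT-20 cells in which the maintenance DNA methyltransferase Dnmt1 had been reduced with siRNA. The members were taken by gene symbol from a list of genes known as p53 targets. Of the 32 genes, 30 were represented by 56 of the 45101 probe sets on the array. Trp53 and Gdf15 had no probe set annotated to their symbol alone and were not analysed here. The signals of 24 members were bright enough to be tested, on 40 of the 27022 probe sets tested in all.

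AtT-20 is an established mouse pituitary tumour line that resembles corticotrophs, the cells that make pro-opiomelanocortin. Cells of 1 group were given siRNA against Dnmt1 (siDNMT1) and those of the other group a non-targeting siRNA (siNT), both at 20 nM, applied repeatedly until RNA was collected on day 8. Each group had 3 arrays, 1 from each of 3 independent repeats, which are numbered 1 to 3 in both groups. Both groups therefore shared the cell line, the repeated siRNA delivery and the length of the treatment, and untransfected cells were not analysed here. The sequence of either siRNA is not given in the labels.

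p53 is a transcription factor that is held low by the ubiquitin ligase Mdm2 and accumulates when DNA is damaged or growth signals are disturbed. It then switches on genes that stop the cell cycle, repair DNA, counter oxidative stress or lead to cell death, and it switches on Mdm2 as well, which closes a feedback loop. Loss of Dnmt1 is known to activate p53 in some cell types. p53 is regulated mainly as a protein, which arrays do not measure.

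p53 binds DNA as a tetramer, and its binding site is built from decamers, each recognised by a pair of p53 molecules. RefSeq start-site windows of 300 bases (250 before to 50 after the start, assembly GRCm38.p6, most upstream start of each gene) were found for 25 of the 32 members. The p53 decamer, searched by its consensus, which reads the same on both strands, occurred in 7 of the 25 windows and in 8.3% of the windows of all 27025 genes. The 7 genes were Trp53, Mdm2, Ccng1, Cdkn1a, Ckap2, Aen and Ei24. The matches were GGACTTGCCC for Trp53, GAACTTGCCT for Mdm2, GGGCAAGCCT for Ccng1, AGACATGTCC for Ckap2, GGGCTTGTCC for Aen and GGGCATGCCC for Ei24. Cdkn1a was the only 1 of the 25 members with 2 decamers, GGACTAGCTT and GAACATGTCT. A match is a run of letters and not a measured binding site. The windows of Cdkn1a and Mdm2 are shown because these are the textbook targets of p53, with the decamers in capitals. The Cdkn1a window lies at chr17:29090729-29091028 on the plus strand and the Mdm2 window at chr10:117710709-117711008 on the minus strand.
Cdkn1a: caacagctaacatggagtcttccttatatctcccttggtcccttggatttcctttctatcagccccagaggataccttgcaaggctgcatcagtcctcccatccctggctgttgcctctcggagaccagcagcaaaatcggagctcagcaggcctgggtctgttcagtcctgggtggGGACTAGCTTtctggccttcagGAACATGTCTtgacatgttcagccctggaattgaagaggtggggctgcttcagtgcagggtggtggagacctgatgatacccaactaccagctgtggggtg
Mdm2: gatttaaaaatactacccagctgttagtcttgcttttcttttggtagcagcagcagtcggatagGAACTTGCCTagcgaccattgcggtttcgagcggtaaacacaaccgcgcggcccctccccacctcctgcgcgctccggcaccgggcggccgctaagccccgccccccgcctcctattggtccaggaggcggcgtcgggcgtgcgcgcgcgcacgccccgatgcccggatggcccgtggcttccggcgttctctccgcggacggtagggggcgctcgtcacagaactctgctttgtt

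The knockdown was checked on Dnmt1. Its scaled signal was 214, 142 and 300.9 in siDNMT1 repeats 1 to 3 and 540.5, 701.3 and 619.3 in siNT repeats 1 to 3. The groups did not overlap, and 39.6%, 20.2% and 48.6% of the paired control signal was left. The log2 difference was -1.54 (SE 0.24), with a limma adjusted p of 0.151, or 0.0211 with the repeat number as a block (the paired fit). These values are of the brightest Dnmt1 probe set. The others were at -1.81 (SE 0.26) and -1.75 (SE 0.25), with paired limma adjusted p of 0.0141 and 0.0197. Signals are the deposited intensities after each array had been scaled to the same median log2 value, and every difference is siDNMT1 minus siNT in log2(scaled signal + 5.29), which understates changes of dim probe sets.

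No p53 target gene passed the test. Of the 24 tested members, represented each by its brightest probe set, 0 had a limma adjusted p under 0.05, and 0 did so in the paired fit. The background over all tested probe sets was 0% in the unpaired and 0.0851% in the paired fit. At an unadjusted p under 0.05 there was 1 member without the block, Ak1, against 3.79% of all probe sets. In the paired fit there were 2 of the 24, Ak1 and Ephx1, against 7.83%. Both counts were about the share of the background. By value alone 10 members were higher and 14 lower, and 13 were higher and 11 lower with trimmed mean or quantile scaling. Over all tested probe sets 59.2% were lower under median scaling, where their median was -0.06. With trimmed mean and quantile scaling the median over all tested probe sets was 0.0022 and -0.0062. The differences ran from -0.40 (Rrm2b) to 0.59 (Ak1) with a median of -0.03, beside a median of -0.06 over all tested probe sets. In 23 of the 24 members the difference was smaller than 0.5 in size, as it was for 89.4% of all tested probe sets.

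**Figure D1:**
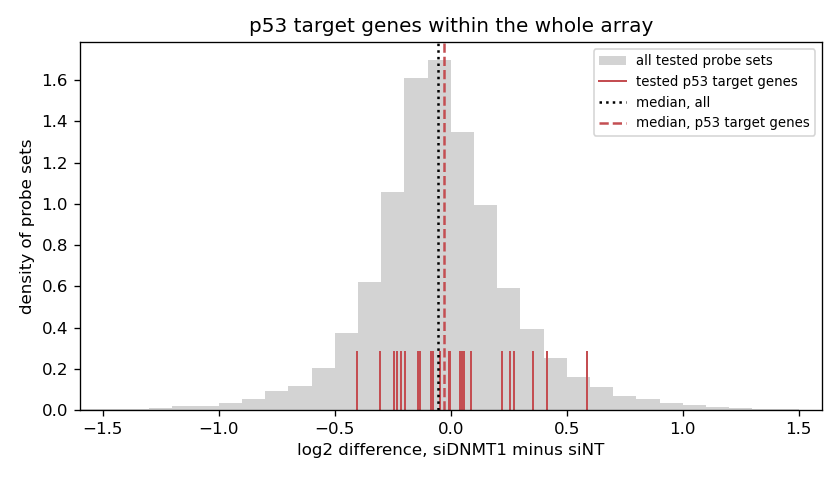
Distribution of the log2 differences (x axis, siDNMT1 minus siNT) of all 27022 tested probe sets (grey histogram, density on the y axis, far tails not drawn), with the 24 tested p53 target genes as red ticks. The dashed line is the median of the p53 target genes (-0.03) and the dotted line that of all probe sets (-0.06); the ticks lie within the body of the histogram and on both sides of 0.

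The 95% confidence interval of a member's difference extended by 0.31 to 0.62 to either side, with a median of 0.50, compared with 0.57 over all tested probe sets. These intervals are those of single genes in the fit without the block. A call after adjustment over all probe sets needed a larger difference, since Dnmt1 at -1.54 was not called in the unpaired fit. The medians of the members were 0.08, -0.14 and 0.00 in repeats 1, 2 and 3, and those of all tested probe sets were 0.02, -0.11 and -0.07. Repeat 2, with the least Dnmt1 left, had the lowest median of both and the brightest deposited arrays. A relation between these was not tested.

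**Figure D2:**
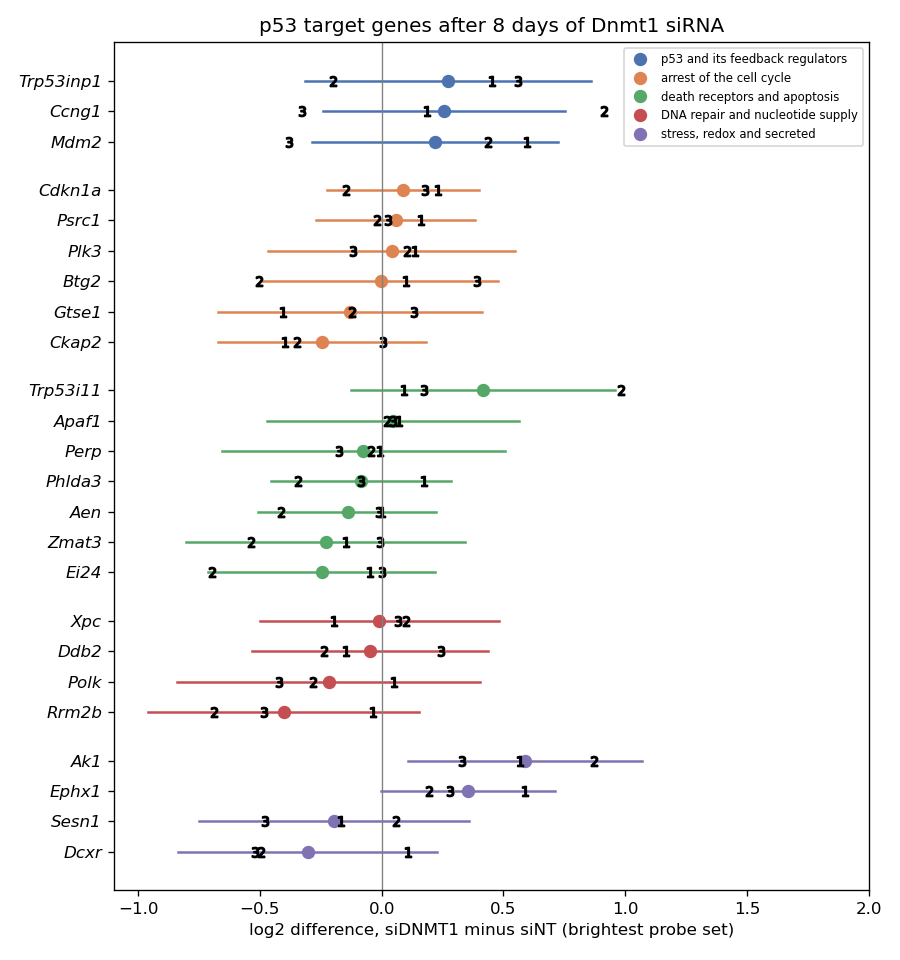
Log2 differences of the 24 tested p53 target genes (x axis, siDNMT1 minus siNT, brightest probe set of each), grouped by role in colour. Large dots are the differences, bars the 95% confidence intervals of the fit without the block, and the digits 1 to 3 the differences within each repeat; the interval of Ak1 alone lies above 0.

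Among the feedback regulators, the 3 measured genes had higher values in the knockdown under all 4 scalings tried, and 0 of them passed the test. Mdm2, whose product marks p53 for degradation, had scaled signals of 162.4, 199.8 and 137.4 in siDNMT1 repeats 1 to 3 and 105.5, 146.1 and 180.5 in siNT repeats 1 to 3. The groups overlapped, since repeat 3 went the other way. The difference was 0.22 (SE 0.23, limma adjusted p = 1.00), with a 95% confidence interval of -0.288 to 0.725, that is from 0.819-fold to 1.65-fold. A further Mdm2 probe set was at 0.12 and a dim one, not tested, at -0.04. Ccng1 encodes cyclin G1, which recruits a phosphatase to Mdm2. Its signals were 163.8, 212.9 and 138.5 in siDNMT1 and 143.3, 110.7 and 175.2 in siNT repeats 1 to 3. The groups overlapped, with the knockdown value higher in repeats 1 and 2 and lower in repeat 3. The difference was 0.26 (SE 0.23) on this brightest probe set and -0.29 and -0.11 on the others, and within repeats it was 0.19, 0.91 and -0.33. Trp53inp1, a stress-induced nuclear protein gene of the p53 response, was at 0.27 (SE 0.27) and, on its other probe set, at -0.02.

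Of the genes that arrest or time the cell cycle, 3 of 6 had higher and 3 lower values, and 0 passed. Cdkn1a encodes p21, the inhibitor of cyclin-dependent kinases through which p53 stops the cycle. Its scaled signal was 3176, 2592 and 3455 in siDNMT1 repeats 1 to 3 and 2704, 2872 and 3052 in siNT repeats 1 to 3. The transcript was thus readily measured in control cells, and the knockdown values reached both above and below the control range. Group means were 3074 ± 440 and 2876 ± 174 (SD, n = 3 each). The difference was 0.09 (SE 0.14, limma adjusted p = 1.00), with a 95% confidence interval of -0.22 to 0.40, that is from 0.856-fold to 1.32-fold. An exact permutation test of the 6 arrays gave a two-sided p of 0.6, where 0.1 is the smallest value that 3 against 3 arrays allow. Without siDNMT1 array 3 the difference was -0.002. The dimmer Cdkn1a probe set, at a mean of 399.6 in control cells, was at 0.20 (SE 0.20).

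Btg2, an antiproliferative gene induced by p53, was at 0.00 (SE 0.22) on its brightest probe set, below 0 under median scaling and above 0 under the 3 others, and at 0.27 on the second. The polo-like kinase gene Plk3 was at 0.04 (SE 0.23). Psrc1, a spindle protein gene, was at 0.06 (SE 0.15), with further probe sets at -0.08 and at 1.06 (SE 0.61), the latter dim, with signals of 0.72 to 34.3 in control cells. Gtse1, whose product moves p53 out of the nucleus in G2, was at -0.13 (SE 0.25). The spindle protein gene Ckap2 was at -0.25 (SE 0.19), with signals of 101.1, 101.7 and 99.5 in siDNMT1 and 134.7, 130.7 and 99.2 in siNT repeats 1 to 3, so it was lower in repeats 1 and 2 alone. Gtse1, Psrc1 and Ckap2 are also genes of mitosis. Of 29 tested genes of replication and mitosis, 0 passed in either fit, and their median was -0.055.

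**Figure D3:**
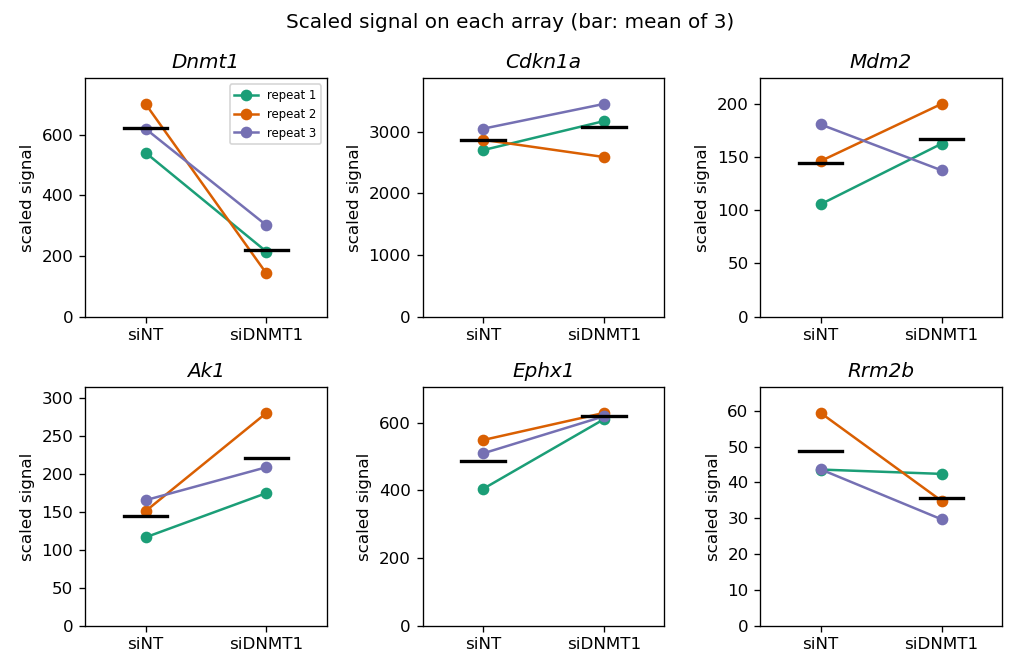
Scaled signal (y axis, linear from 0) of Dnmt1 and of the p53 target genes Cdkn1a, Mdm2, Ak1, Ephx1 and Rrm2b on each of the 6 arrays, siNT left and siDNMT1 right, with lines joining the arrays of 1 repeat and black bars at the group means. The groups are apart for Dnmt1, Ak1, Ephx1 and Rrm2b and overlap for Cdkn1a and Mdm2.

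Among the genes of death receptors and apoptosis 7 were tested, of which 2 had higher and 5 lower values, and 0 passed. Trp53i11, a p53-induced gene linked to cell death, was the furthest from 0 in this group. Its signals were 63.1, 100.3 and 87.8 in siDNMT1 and 58.9, 48.2 and 77.3 in siNT repeats 1 to 3, a difference of 0.42 (SE 0.25). It was higher in 3 of 3 repeats, by 0.09, 0.98 and 0.17, and the size came mostly from repeat 2. Apaf1, the scaffold of the apoptosome, was at 0.05 (SE 0.23), with 0.07, 0.02 and 0.04 in the 3 repeats. Ei24, an endoplasmic reticulum protein gene induced by p53, differed by -0.25 (SE 0.21). Its signals were 484.3, 398.2 and 687 in siDNMT1 and 500.1, 648.7 and 686.7 in siNT repeats 1 to 3. The groups overlapped, and repeat 2 alone was clearly lower.

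The other 4 tested members of the apoptosis group had lower values, within the spread between arrays. Phlda3, an inhibitor of the survival kinase Akt, was at -0.09 (SE 0.17) and the desmosome and apoptosis gene Perp at -0.08 (SE 0.26). Zmat3, a zinc finger gene for RNA binding, was at -0.23 (SE 0.26) and Aen, an apoptosis-linked nuclease gene, at -0.14 (SE 0.17). The 3 other Aen probe sets were at -0.24, -0.345 and 0.33, and on the first of these all knockdown arrays lay below the controls. The genes of the receptors Fas, Tnfrsf10b (TRAIL receptor) and Eda2r (ectodysplasin A2 receptor) were all too dim to be tested.

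Genes of DNA repair and nucleotide supply had lower values in 4 of 4 tested members under median scaling, with a median of -0.13, but in 2 of 4 with trimmed mean or quantile scaling. Rrm2b encodes the p53-inducible subunit of ribonucleotide reductase, which supplies nucleotides for repair. Its signals were 42.4, 34.8 and 29.7 in siDNMT1 and 43.6, 59.4 and 43.7 in siNT repeats 1 to 3. The groups did not overlap, though the values of repeat 1 nearly met. The difference was -0.40 (SE 0.25, limma adjusted p = 1.00; paired limma adjusted p = 0.734). The 3 dimmer Rrm2b probe sets, not tested, had differences of 0.48 to 0.81. Polk, a translesion polymerase gene, was at -0.22 (SE 0.28) and, on its second probe set, at 0.13. Xpc, of damage recognition in nucleotide excision repair, was at -0.01 (SE 0.22). Ddb2 finds ultraviolet damage. Its signals were 81.5, 108.1 and 99.9 in siDNMT1 and 90.8, 128.3 and 83.7 in siNT repeats 1 to 3, so the groups overlapped, with a difference of -0.05 (SE 0.22), and its second probe set was at 0.27. The Xpc value and that of the brighter Ddb2 probe set were above 0 with trimmed mean or quantile scaling.

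Genes of stress, redox and metabolism held the 2 members with the smallest unadjusted limma p, Ak1 and Ephx1. By size of difference, Trp53i11 (0.42) and Rrm2b (-0.40) of other groups were further from 0 than Ephx1 (0.35). Ak1 encodes adenylate kinase, which balances adenine nucleotides. Its signals were 174.7, 280.4 and 208.8 in siDNMT1 and 116.3, 150.8 and 165.3 in siNT repeats 1 to 3. The lowest knockdown value lay just above the highest control value, and group means were 221 ± 53.9 and 144 ± 25.2 (SD, n = 3 each). The difference was 0.59 (SE 0.22), or 50.3% higher, with a 95% confidence interval of the fold of 1.08 to 2.10, and it was higher in 3 of 3 repeats (0.57, 0.87 and 0.33). It did not pass the correction, with a limma adjusted p of 1.00 and a paired limma adjusted p of 0.361. Over 22 alternatives the adjusted p of Ak1 ran from 0.0978 to 1. The second Ak1 probe set, dim at a mean of 18.6 in control cells, was at 0.04 (SE 0.37). The mean of both probe sets was at 0.31 (limma adjusted p = 1.00).

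Ephx1 encodes microsomal epoxide hydrolase, which detoxifies epoxides. Its signals were 610.2, 628.8 and 618.8 in siDNMT1 and 404.1, 548.6 and 509.1 in siNT repeats 1 to 3. The 3 knockdown arrays were close together and all above the controls, with means of 619 ± 9.29 and 487 ± 74.7 (SD, n = 3 each). The difference was 0.35 (SE 0.16), a fold of 1.28, and was positive in 3 of 3 repeats (0.59, 0.20 and 0.28). It did not pass either, with a limma adjusted p of 1.00 and a paired limma adjusted p of 0.554. Counted on the brightest probe set of each gene, Ak1 and Ephx1 were the 2 of 24 tested members (8.33%) with knockdown arrays all above control arrays. Among all tested probe sets, which include the dimmer ones of a gene, the share was 2.96%. Rrm2b was the 1 member (4.17%) with all below on its brightest probe set, against 5.78% of all tested probe sets. A dimmer tested probe set of Aen also had all knockdown arrays below the controls.

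Sesn1 and Dcxr, the other tested genes of this group, had lower values. Dcxr, a carbonyl reductase gene, was at -0.30 (SE 0.24), with 0.11, -0.49 and -0.52 in repeats 1 to 3. Sesn1 encodes sestrin 1, which restrains mTORC1 and oxidative stress. Its brightest probe set was at -0.20 (SE 0.25), with signals of 70.1, 123.6 and 75.5 in siDNMT1 and 79.5, 118.4 and 107.3 in siNT repeats 1 to 3. Its second probe set was at 0.45 (SE 0.32), and higher in 3 of 3 repeats by 0.49, 0.48 and 0.37. Another was at -0.50 (SE 0.30), and lower in 3 of 3 by 0.77, 0.03 and 0.69. The probe sets of Sesn1 thus disagreed in sign by similar amounts. In limma's paired fit these had an unadjusted p of 0.0276 and 0.0516 and an adjusted p of 0.583 and 0.644.

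Of 11 members with more than 1 tested probe set, 8 had differences of both signs under median scaling. They were Sesn1, Ccng1, Trp53inp1, Btg2, Psrc1, Aen, Ddb2 and Polk. Some of these differences lay close to 0, at -0.004 (SE 0.22) for Btg2, -0.018 (SE 0.305) for Trp53inp1 and -0.047 (SE 0.221) for Ddb2. The brightest probe sets of Btg2 and Ddb2 were above 0 with trimmed mean or quantile scaling, so the count depends on the scaling. Mdm2, Cdkn1a and Ak1 had 1 sign on all of their tested probe sets, above 0.

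**Figure D4:**
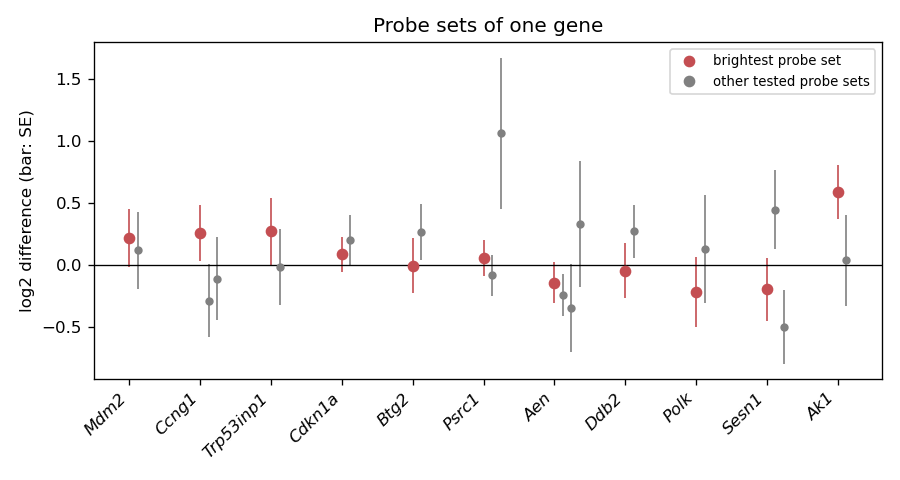
Log2 differences (y axis, siDNMT1 minus siNT, bars are SE) of every tested probe set of the 11 p53 target genes with more than 1, the brightest in red and the others in grey. For 8 of the 11 genes, such as Sesn1 with -0.20, 0.45 and -0.50, the points lie on both sides of 0.

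The 6 members not tested were Plk2, Cgref1, Fas, Tnfrsf10b, Eda2r and Ercc5. On their brightest probe sets the scaled signals ran from 1.43 to 27.0 over the 6 arrays, and their means lay below the filter of 16.8. Fas, the best known death receptor under p53 control, had signals of 3.43, 11.3 and 1.43 in siDNMT1 and 3.48, 14.8 and 7.22 in siNT repeats 1 to 3. Eda2r had 22.0, 23.3 and 7.72 against 6.62, 19.0 and 3.53, and Tnfrsf10b had 25.8, 20.7 and 9.12 against 18.3, 11.04 and 9.998. For each of these receptors the groups overlapped, and some arrays of Fas and Eda2r lay below the pseudocount of 5.29. Differences of the 6 untested members ran from -0.395 (Fas) to 0.664 (Eda2r), given without a test. Without the filter, 30 members entered the fit and 0 passed.

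Directions within repeats, counted on the brightest probe set of each member, were mixed. All 3 repeats were higher for 4 of the 24 tested members (16.7%), Ak1, Ephx1, Trp53i11 and Apaf1, against 10.1% of all tested probe sets. All 3 were lower for 3 (12.5%), Rrm2b, Zmat3 and Perp, against 19.2%.

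Other genes of the p53 pathway gave the same count. Of 71 genes listed as its triggers, regulators or further targets, 66 had a probe set and 54 were tested, and 0 were called higher and 0 lower in either fit. Their median was -0.035, with 23 higher and 31 lower values. The 6 with the smallest p without the block were Aldh4a1, a proline pathway dehydrogenase gene, at -0.41 (SE 0.21), the damage adaptor gene Trp53bp1 at -0.49 (SE 0.27), the growth factor gene Tgfa at 0.39 (SE 0.23), Trp53i13 at 0.41 (SE 0.24), Gadd45b at 0.27 (SE 0.18) and the metabolic regulator gene Tigar at -0.31 (SE 0.22). Trp53bp1, which marks double-strand breaks, was lower in 3 of 3 repeats by 0.22, 0.69 and 0.56 and had a paired limma adjusted p of 0.429. By subgroup, 3 of 16 triggers and feedback genes, 5 of 8 arrest genes, 7 of 10 death genes, 3 of 13 genes of repair and metabolism and 5 of 7 genes of secreted and surface proteins had higher values. The others had lower values, as did 59.2% of all tested probe sets.

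CpG dinucleotides are the sites that Dnmt1 methylates, so their number near the start was compared with the differences. The start-site windows of the 25 members held 1 to 46 CpG, with a median of 21, against 7 over all genes. A ratio of observed to expected CpG of at least 0.6 was found in 17 of the 25 windows and in 36.5% of all. Of the 18 tested members with a window, the 14 at or above that ratio had a median difference of -0.045 and the 4 below it, Cdkn1a, Ak1, Ephx1 and Dcxr, a median of 0.22. Those 4 ranged from -0.30 to 0.59, so the split had no uniform direction, and DNA methylation itself was not measured. Ak1 and Ephx1 had the smallest unadjusted limma p of the tested members, so their windows are shown, with CpG in capitals. These windows lie at chr2:32621508-32621807 (plus strand) and chr1:181017520-181017819 (minus strand). They held 6 and 5 CpG, against 35 in the window of Mdm2. RefSeq lists 4 starts for Ak1 and 2 for Cdkn1a, and 1 each for Ephx1 and Dcxr. The most upstream start alone was used, so the CpG of the other Ak1 and Cdkn1a starts was not counted.
Ak1: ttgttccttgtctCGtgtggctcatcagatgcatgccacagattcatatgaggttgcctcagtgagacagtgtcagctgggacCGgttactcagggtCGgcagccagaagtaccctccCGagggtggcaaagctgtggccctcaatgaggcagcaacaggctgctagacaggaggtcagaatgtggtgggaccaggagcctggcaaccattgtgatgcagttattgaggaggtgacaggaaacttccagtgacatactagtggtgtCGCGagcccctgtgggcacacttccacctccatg
Ephx1: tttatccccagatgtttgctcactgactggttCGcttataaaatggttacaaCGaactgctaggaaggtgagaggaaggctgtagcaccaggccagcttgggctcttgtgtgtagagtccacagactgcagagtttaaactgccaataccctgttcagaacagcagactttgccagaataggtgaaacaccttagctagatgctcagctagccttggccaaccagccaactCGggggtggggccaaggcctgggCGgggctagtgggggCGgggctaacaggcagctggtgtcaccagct

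**Figure D5:**
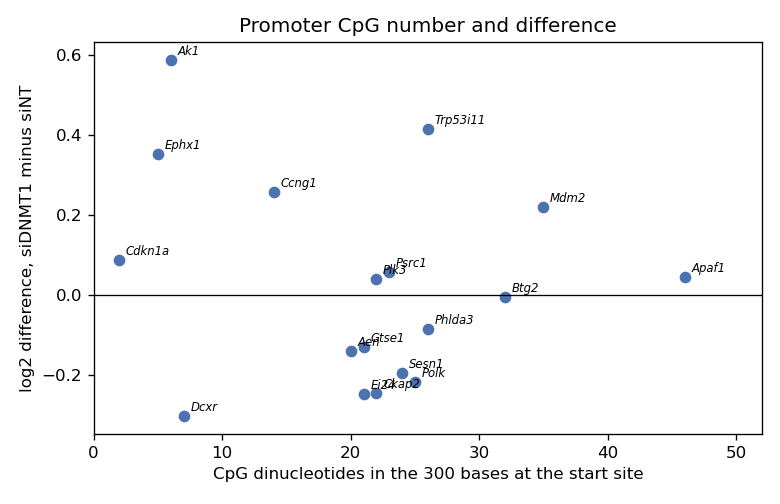
Number of CpG dinucleotides in the 300 bases at the start site (x axis) and log2 difference, siDNMT1 minus siNT (y axis), of the 18 tested p53 target genes with a RefSeq window. Ak1 and Ephx1 lie at 6 and 5 CpG and Mdm2 at 35, and windows of 20 or more CpG have differences on both sides of 0.

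The cells had the markers of the line. The 8 corticotroph markers were all tested, with Pomc at 8443 in siDNMT1 and 9229 in siNT cells, and their summed signals were 16030 to 23210 and 18360 to 23790. Sums for markers of fibroblasts (8 genes) were 168 to 212 in siDNMT1 and 141 to 189 in siNT, those of macrophages and leukocytes (8 genes) 445 to 522.5 and 464 to 522.4, those of other pituitary hormone cells (7 genes) 133 to 246 and 147 to 247, and those of endothelial cells (5 genes) 118 to 126 and 85.6 to 114. The endothelial sums did not overlap between groups, though the groups overlapped for each of the 5 genes. Of these, Pecam1 and Tek were too dim to be tested. The fibroblast gene Pdgfra was at 1.26 (SE 0.47, limma adjusted p = 1.00). In the pituitary, fibroblast and leukocyte lists 1 gene each had a mean below the pseudocount. No marker passed the test, and the part of these markers in the values of the p53 target genes was not tested. In RNA of whole cultures, a change in fewer cells and a smaller change in every cell cannot be told apart. Median deposited signals were 19.8 to 36.4 per array, both arrays of repeat 2 being the brightest, and the actin ratio of 3' to 5' signal lay between 1.19 and 1.40.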

How the data were processed

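Per the submitters' processing notes, the authors used GCOS, the Affymetrix operating software, to make the deposited intensity of each probe set on each of the 6 arrays; the labels give no version, settings or detection calls. Arrays were brought to a common median of log2 signal. A pseudocount of 5.29, the 20th percentile of the deposited signals, was added. Probe sets averaging less than 16.8, the 40th percentile after scaling, were not tested. The 2 groups were compared with limma 3.58.1 in R 4.3.3 (lmFit, eBayes with trend, two-sided, Benjamini-Hochberg over all 27022 tested probe sets, threshold 0.05). The fits were tested on simulated data with changes larger than that of any tested member. That test covered no changes of the size seen in the members. Deviations of arrays with the same repeat number correlated at 0.173, 0.231 and 0.257 across probe sets, each over 0.1, so the numbers pair the arrays. Calls are given for both fits, but the SEs and confidence intervals are those of the fit without the block. In the paired fit the SE was smaller for Cdkn1a (0.099 against 0.142) and Ak1 (0.164 against 0.22). For Apaf1 it was about equal (0.236 against 0.235).

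Probe sets were named from the platform annotation (34945 with 1 symbol, 932 with several, 9160 with none, 64 controls left out). The brightest probe set stood for a gene. The members and lists were chosen with earlier results of these data known. 2 list symbols were matched by synonym. Values on every array were given, by rule, for Cdkn1a and Mdm2, for members past the threshold or with an unadjusted p under 0.05 in either fit, and for the brightest member of each role; those of Ckap2, Trp53i11, Rrm2b, Sesn1, Fas, Eda2r and Tnfrsf10b were added after values were seen. Of the other pathway list, the 6 genes with the smallest p were named. Alternatives were other scalings, pseudocounts of 1 and 16, other filters and no variance trend. Others were the mean of a gene's probe sets, the replicate block and leaving out arrays. A last one, the suffix filter, left out probe sets whose names end in _s_at, _x_at or _a_at. Independent repeats are stated in the labels, so the p-values measure the spread between repeats. The number of arrays limits the precision.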

Additional observations from a re-analysis of the deposited data

How the results depend on the processing

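The count of p53 target genes called was 0 under all 22 alternatives, as was that of the other pathway genes, and the median of the members ran from -0.11 to 0.06, within the spread between repeats (SD 0.11). Values of Ak1 (0.04 to 0.74), Ephx1 (0.23 to 0.44), Mdm2 (0.02 to 0.52), Sesn1 (-0.50 to -0.05) and Rrm2b (-0.60 to -0.26) kept their sign under the alternatives run. The lowest values of Ak1 and Sesn1 came from the suffix filter, where another probe set of the gene took the place of the brightest. For Ak1 this was the dim one at 0.04, and a further Sesn1 probe set was at 0.45. Cdkn1a ran from -0.002, without siDNMT1 array 3, to 0.20; the cause was not tested. Over all probe sets the count of calls was 0 without the block and 23 with the replicate block, 3 with the block and trimmed mean scaling and 4 with the block and quantile scaling. Without the block it was 1 with trimmed mean scaling, quantile scaling, the filter at the 60th percentile and the suffix filter. It was 2 without scaling, and 0 to 4 when 1 array was left out, the 4 without siDNMT1 array 3. With the block it was 45, 56 and 261 without repeat 1, 2 or 3. Dnmt1 passed with the replicate block (-1.54, limma adjusted p = 0.0211) and without siDNMT1 array 3 (-1.79, adjusted p = 0.044), but not with the block and trimmed mean scaling (-1.47, adjusted p = 0.0551) or the block and quantile scaling (-1.46, adjusted p = 0.0532). It ran from -1.79 to -1.26 when 1 array was left out. With the block it was -1.65, -1.17 and -1.79 without repeat 1, 2 or 3, and it passed in each of these smaller fits. The block changed no call of a p53 target gene. A test of Trp53 was planned and not run, since Trp53 was not analysed here. The suffix filter was not planned for Dnmt1, Cdkn1a and Mdm2. No array could be tested as an outlier in groups of 3, and dim probe sets such as those of Fas have little signal. After adjustment over all probe sets, Ak1 at 0.59 and, without the block, Dnmt1 at -1.54 were not called.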
